A study of Mus musculus with 18 samples.

Results

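The comparison described here is CGG90 against wild type in mouse Purkinje cells at 4 weeks of age. It used 6 of the 18 libraries of the series, namely all 3 libraries labelled CGG90 and all 3 labelled wild type at that age. Each library was RNA bound to tagged ribosomes, taken from pooled cerebella of 4 mice (2 males and 2 females) and measured on 1 Affymetrix expression array. Both genotypes were F1 offspring of C57B6 and FVB parents and carried, hemizygously, a bacterial artificial chromosome transgene in which the L7/Pcp2 promoter drives the ribosomal protein L10a joined to enhanced green fluorescent protein. CGG90 mice carried in addition 1 copy of the L7CGG90Fmr1 transgene, an Fmr1 construct with a CGG repeat of 90 units under the L7 promoter, and the animals called wild type lacked it. Wild-type animals were littermates where that was possible. No transgene with a short repeat was among the groups, so the effects of the repeat and of added Fmr1 message cannot be told apart. Libraries with the same replicate number share an immunoprecipitation date at this age, so the comparison was made within 3 pairs.

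Purkinje cells are the output neurons of the cerebellar cortex. The tagged ribosomes allow the messages that these cells are translating to be pulled out of whole cerebellum, a method called TRAP. FMR1 encodes FMRP, an RNA-binding protein that represses the translation of many synaptic messages. Premutation-length CGG repeats upstream of its coding sequence cause fragile X-associated tremor/ataxia syndrome (FXTAS), in which Purkinje cells are lost and nuclear inclusions form. Repeat RNA can bind and hold RNA-binding proteins, and it can also be translated without a start codon. The question this comparison addresses is which translating messages differ in young Purkinje cells that express the repeat.

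The 2 promoters behind the Fmr1 message in these mice are the gene's own and that of Pcp2, the Purkinje cell gene whose promoter drives both transgenes. They are shown from RefSeq (GRCm38.p6) as the 250 genomic bases upstream of the first start listed with a promoter window. Bases run 5′ to 3′ on the gene's strand, and the transgenes' own copies were not sequenced here. Capitals mark matches, on either strand, to CACGTG (the E-box of USF proteins), GCATGC (the centre of the NRF1 palindrome), GGGCGG (the GC box) or CGGCGG (a pair of CGG units), and TATAAA was also searched. Fmr1 lies on the plus strand (window chrX:68678291-68678540) and Pcp2 on the minus strand (window chr8:3625548-3625797). The last bases of the Fmr1 window lie within the annotated gene, whose span begins at 68678536.
Fmr1: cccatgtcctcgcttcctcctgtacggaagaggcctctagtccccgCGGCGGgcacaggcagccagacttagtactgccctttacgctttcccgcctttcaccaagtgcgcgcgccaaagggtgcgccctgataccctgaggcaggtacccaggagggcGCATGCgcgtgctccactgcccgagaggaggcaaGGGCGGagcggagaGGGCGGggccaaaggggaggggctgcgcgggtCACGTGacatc
Pcp2: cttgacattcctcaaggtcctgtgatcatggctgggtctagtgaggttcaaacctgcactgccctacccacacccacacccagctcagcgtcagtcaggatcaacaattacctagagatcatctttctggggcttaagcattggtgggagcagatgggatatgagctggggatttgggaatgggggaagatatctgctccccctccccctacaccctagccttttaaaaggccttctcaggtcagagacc
The Fmr1 window held 67.2% G or C and 21 CG dinucleotides, the Pcp2 window 52.8% and 1, beside medians of 52.4% and 6 over the 32851 promoter windows of the table. Fmr1 had 1 CACGTG (found in 6.02% of all windows), 1 GCATGC (6.70%), 2 GGGCGG (32.7%), 1 CGGCGG (14.4%) and no TATAAA (12.4%). None of the 5 motifs occurred in the Pcp2 window. A match is a stretch of letters and not a known binding site.

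The 6 arrays were alike in scale, with median log2 values of 2.57 to 2.59 and 37.4% to 39.2% of probe sets at a log2 value of at least 4, the floor used for testing. The 21 Purkinje cell markers measured had mean log2 values of 12.18, 12.22 and 11.91 in CGG90 replicates 1 to 3 and 12.29, 12.06 and 11.87 in wild type. Pcp2 itself stood at 14.83, 14.83 and 14.65 in CGG90 and at 14.75, 14.81 and 14.55 in wild type, and none of the 21 markers was below the floor in all libraries. Markers of other cerebellar cells were also present, and their level differed between replicate numbers. The 12 oligodendrocyte markers averaged 8.21, 9.82 and 10.85 in CGG90 and 8.24, 9.85 and 10.94 in wild type. Granule cell markers (14) averaged 7.44, 8.01 and 9.12 against 7.05, 8.31 and 8.82. Both lists were lowest in replicate 1 and highest in replicate 3 in either genotype, and pairs of the same number lay close together. Endothelial and mural markers stayed low, with 8 of 11 below 4 in all 6 libraries. In bulk samples, fewer cells of a type and less RNA per cell cannot be told apart.

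**Figure D1:**
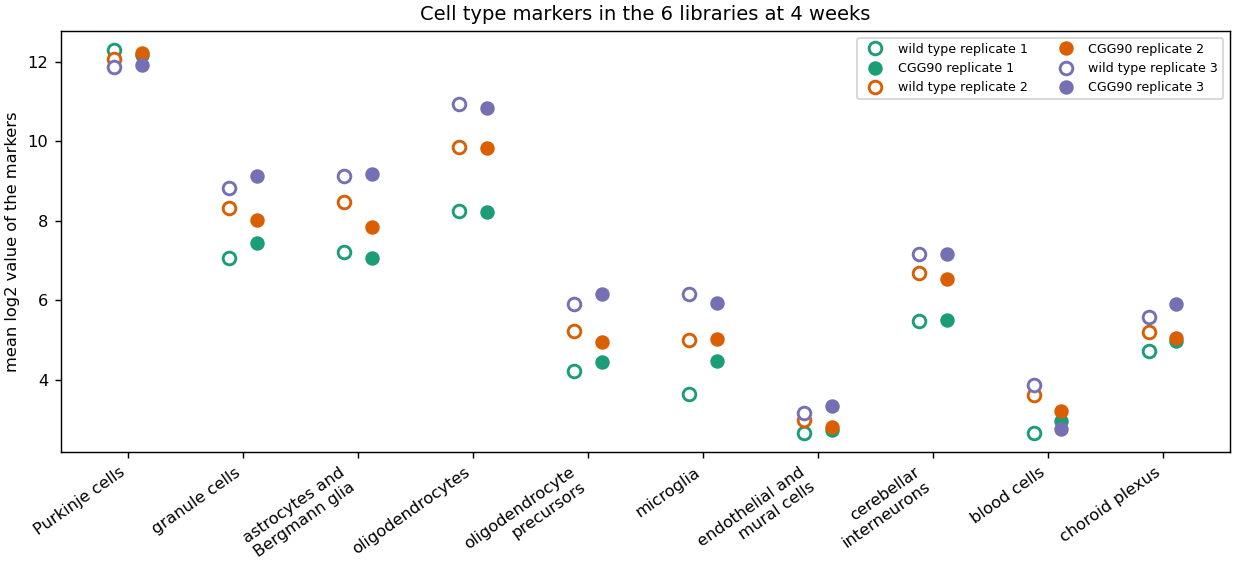
Mean log2 value of the markers of 10 cell types (x axis) in each of the 6 libraries; open circles are wild type, filled circles CGG90, and colour gives the replicate number. Purkinje cell markers lie between 11.87 and 12.29 in all 6 libraries, while oligodendrocyte markers run from 8.21 in replicate 1 to 10.94 in replicate 3 with both genotypes of a number side by side.

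Of the 6 libraries at 4 weeks, 1 went against its label in 1 respect. CGG90 replicate 3 was at the array floor for the Y-linked genes Eif2s3y (2.43) and Kdm5d (2.18), although the labels give 2 males and 2 females for its pool. The other 5 libraries had values of 5.50 to 7.86 for Eif2s3y and 4.44 to 7.61 for Kdm5d. Fmr1 and some of the other leading genes are therefore given with and without the replicate 3 pair. Of 108 named genes other than Fmr1, 10 turned direction without that pair (Eif2s3y, Kdm5d, Ranbp9, Top3b, Homer1, Plcb4, Rgs7bp, Pld2, Prkg1 and Ppp1r17) and 29 kept it but moved by over 1.5 times. Each gene is read by 1 probe set, and in 37 of the 58 named genes with another probe set that averaged at least 4, at least 1 such probe set went the other way.

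Fmr1 was the gene that separated the genotypes. Its brightest probe set read 11.66, 11.52 and 11.72 in the CGG90 libraries and 6.33, 7.34 and 7.29 in wild type. Every CGG90 library was above every wild-type library, and the within-pair differences were 5.33, 4.18 and 4.43. The means were 11.63 ± 0.10 and 6.98 ± 0.57 (SD, n = 3 each), a difference of 4.65 on the log2 scale (95% interval 3.98 to 5.32), or 25.1-fold. With limma, on the deposited log2 values with the replicate number as a block, the standard error was 0.28 and the adjusted p was 0.0120. It was the only call among 10068 tested genes, so 0.00993% of them passed. Exact two-sided permutation of this single value gave p = 0.25 over the 8 sign changes of the 3 pairs and p = 0.1 over the 20 arrangements of the 6 labels, the smallest that either can give. Without the replicate 3 pair the difference was 4.76 with an adjusted limma p of 0.0750, so no gene passed.

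The 3 probe sets of Fmr1 (chrX:68678536-68717963, plus strand, GRCm38.p6) did not read alike. The second in brightness gave 9.73, 9.17 and 9.16 in CGG90 and 5.72, 4.82 and 5.99 in wild type, a difference of 3.84 (limma, adjusted p = 0.0725). The third gave 5.80, 6.08 and 6.83 against 6.64, 5.66 and 6.46, a difference of -0.014 with overlapping groups (limma, adjusted p = 1.00). The brighter probe sets thus followed the genotype and the dimmest one, which read levels like those of wild type in all 6 libraries, did not. Which part of the gene each probe set reads was not used here. The log2 difference describes array signal and not the number of molecules.

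**Figure D2:**
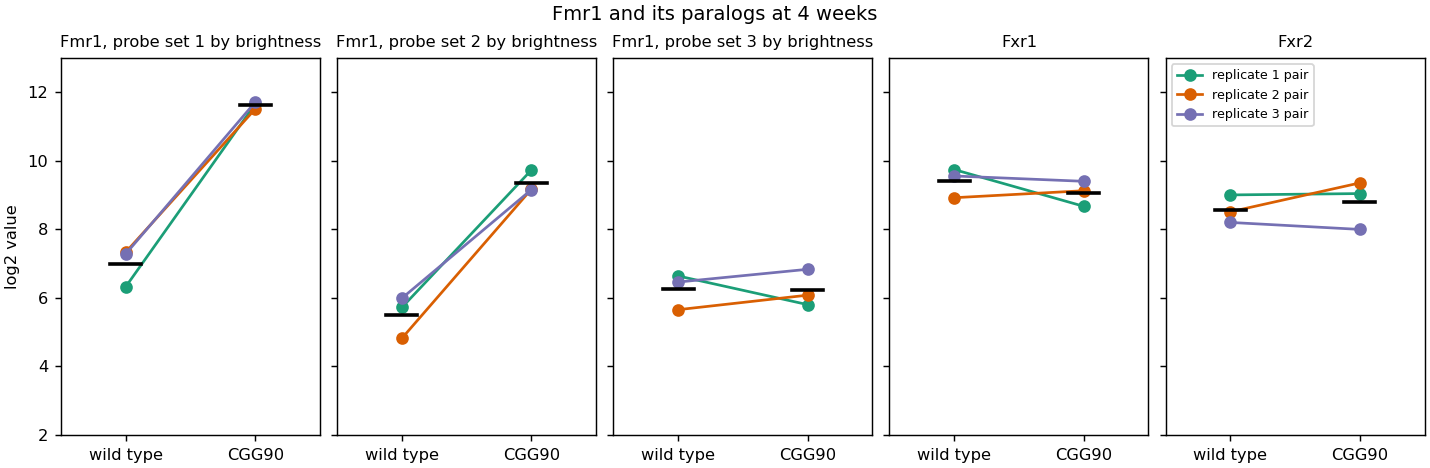
Log2 values of the 3 Fmr1 probe sets and of the paralogs Fxr1 and Fxr2 in wild type and CGG90; lines join the libraries of a replicate number and bars are group means. The lines of the brighter Fmr1 probe sets climb by 4.65 and 3.84 on average, and those of the third probe set, Fxr1 and Fxr2 cross or run level.

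The paralogs Fxr1 and Fxr2 encode proteins closely related to FMRP that can bind it. Fxr1 was 8.67, 9.13 and 9.40 in CGG90 and 9.75, 8.92 and 9.56 in wild type, a difference of -0.34 (95% interval -1.04 to 0.36). For Fxr2 the values were 9.05, 9.36 and 8.00 against 9.01, 8.51 and 8.20, a difference of 0.23 (-0.46 to 0.91). Neither passed, the groups overlapped, and each interval is wide on 1 side, below 0 for Fxr1 and above 0 for Fxr2. Rpl10a, the endogenous gene of the tagged ribosomal protein, differed by -0.13 (-0.56 to 0.30) and Pcp2 by 0.07 (-0.11 to 0.24).

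The list of the FMRP family and its partners held 20 tested genes of 23, of which Fmr1 alone passed, 5 were higher on average in CGG90 and 15 lower, and the median difference was -0.07. The median over all tested genes was -0.01. Among CYFIP and motor partners, Cyfip2, which links FMRP to actin regulation, differed by -0.17, the kinesins Kif5a and Kif3c by 0.19 and -0.11, Myo5a by -0.18 and the dynein light chain Dynll1 by 0.00. Kif5a was higher in all 3 pairs (by 0.22, 0.15 and 0.21) with overlapping groups, and its other probe set above the floor differed by -0.09. Among RNA-binding partners, Ybx1 was lower in each pair by close amounts (-0.31, -0.32 and -0.38) and averaged -0.34 (95% interval -0.69 to 0.01). Ncl averaged -0.55, Caprin1 -0.09 and G3bp1 -0.29, each with pairs of both signs. Nufip1, a nuclear partner of FMRP, read 6.83, 6.41 and 6.87 in CGG90 and 7.18, 7.35 and 7.18 in wild type. Its groups did not overlap and its difference of -0.53 (95% interval -1.29 to 0.23) did not pass. The related Nufip2 differed by -0.04, the Argonautes Ago1 and Ago2 by 0.07 and -0.03, Ranbp9 by -0.02, Top3b and its partner Tdrd3 by 0.20 and -0.02, and the cap-binding protein Eif4e by -0.23.

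Across all genes the genotypes differed little beside the spread of the pairs. The median absolute difference was 0.18 and the median SD of the within-pair differences 0.44, so that the 95% interval of a typical gene reached 0.74 to either side. On average 4884 genes were higher and 5184 lower in CGG90. An unadjusted limma p below 0.05 was reached by 238 genes (2.36%), 110 higher and 128 lower. In all 3 pairs 926 genes were higher (9.2%) and 1148 lower (11.4%). In 190 genes every CGG90 library was above every wild-type library (1.89%), and in 248 every one was below (2.46%). The mean difference was at least 1 in size in 198 genes and at least 2 in 8. Over genes, the differences of the 3 pairs correlated with each other at -0.06, 0.06 and -0.16, given as a description, since genes are not independent.

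**Figure D3:**
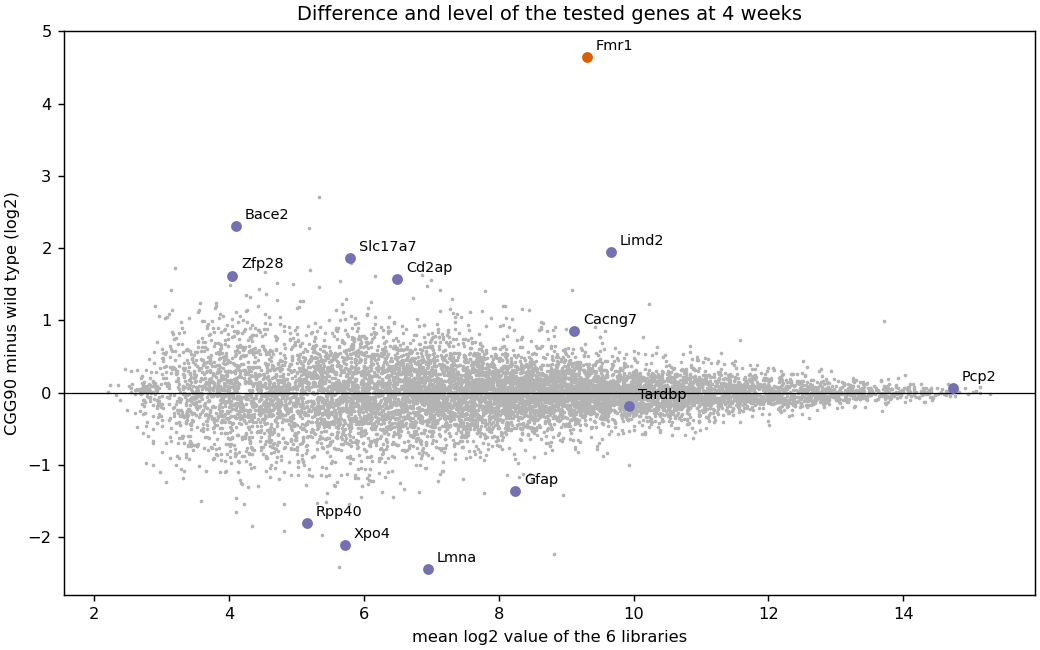
Difference between the genotypes (CGG90 minus wild type, log2) against the mean log2 value of the 6 libraries, 1 point for each of the 10068 tested genes, with some named genes marked. Fmr1 stands alone at 4.65, and the scatter of the other genes is widest at mean values of about 4 to 6 and narrow around brighter genes such as Pcp2 (0.07).

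The genes ranked next by p all had an adjusted p of 1.00 in the limma fit, so what follows describes their values. Bace2, an aspartyl protease related to the beta-secretase of the amyloid precursor protein, read 4.75, 5.72 and 5.30 in CGG90 and 2.97, 3.05 and 2.83 in wild type. All wild-type libraries were at the array floor, so the difference of 2.31 ± 0.34 (SE) rests on the CGG90 libraries being above it. Bace2 also passed the filter only through these 3 CGG90 libraries. In the rest of the series only wild-type replicate 2 at 8 weeks reached 4 (4.60). The other 4 Bace2 probe sets averaged below 4. Without the replicate 3 pair the difference was 2.23. Zfp28, a zinc finger gene, likewise had wild-type values below 4, with 5.59, 4.83 and 4.14 against 3.41, 3.17 and 3.12 (difference 1.62). It passed the filter only through CGG90 libraries, as no wild-type library of the series reached 4. Ccdc183 was 5.55, 4.99 and 5.54 against 4.20, 3.79 and 4.24 (difference 1.28), with close pair differences of 1.35, 1.20 and 1.30. 4932438A13Rik differed by 1.24, also from a wild-type level below 4.

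Brighter genes were among them too. Sbf2, a myotubularin-related gene mutated in a form of Charcot-Marie-Tooth neuropathy, read 7.67, 8.48 and 7.16 in CGG90 and 5.92, 6.28 and 6.45 in wild type, with no overlap and a difference of 1.55 ± 0.38. Rhot1, a mitochondrial GTPase needed for the transport of mitochondria along microtubules, read 9.14, 9.08 and 7.77 against 7.84, 7.43 and 7.11 (difference 1.20), but the other Rhot1 probe set above the floor differed by -0.10. Fmod, which encodes the matrix proteoglycan fibromodulin, read 7.37, 8.56 and 9.57 against 5.87, 7.76 and 7.68 (difference 1.40). The 3 other Fmod probe sets above the floor went the same way on average, by 1.06 to 1.13. They did not in the replicate 1 pair (-0.01, -0.07 and -0.36). Cd2ap, an adaptor between membrane proteins and actin, differed by 1.57, and its level also followed the replicate number in both genotypes (5.79, 7.15 and 8.90 against 3.95, 5.39 and 7.77). Sh2b3, a signalling adaptor, differed by 1.80 with overlapping groups.

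In the other direction, Xpo4, a nuclear transport receptor, read 3.99, 5.38 and 4.61 in CGG90 and 7.40, 6.86 and 6.07 in wild type (difference -2.12 ± 0.48). Lmna, which encodes the lamins A and C of the nuclear envelope, had the most negative difference of all tested genes, -2.44 ± 0.61, with 3.97, 5.77 and 7.43 in CGG90 and 8.33, 7.53 and 8.64 in wild type. The groups of both genes did not overlap, but the pairs of Lmna ranged from -4.35 to -1.21 and its other 4 probe sets averaged below 4. Without the replicate 3 pair the differences were -2.45 for Xpo4 and -3.06 for Lmna. Rpp40, a subunit of ribonuclease P, differed by -1.81, with a second probe set at -0.93. Nhsl2 read 7.57, 7.97 and 7.86 against 9.26, 8.70 and 8.83 (difference -1.13), and its other probe sets above the floor differed by -0.55 and -0.24. Smurf1, a ubiquitin ligase of the bone morphogenetic protein pathway, differed by -1.26 with nearly equal pairs (-1.35, -1.20 and -1.24), against -0.29 on its second probe set. The neuropeptide gene Nts (-1.46), the serotonin receptor gene Htr7 (-1.31), Pxdc1 (-1.54), Tigd3 (-1.33) and the matrix gene Npnt (-1.52) were lower in each pair. In CGG90, Nts, Htr7 and Pxdc1 were below the floor of 4 in replicates 1 and 2, and Npnt in replicate 1 (2.88). The sizes given for them thus depend on values near the floor. Npnt also differed by date (limma F test, adjusted p = 0.0464).

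**Figure D4:**
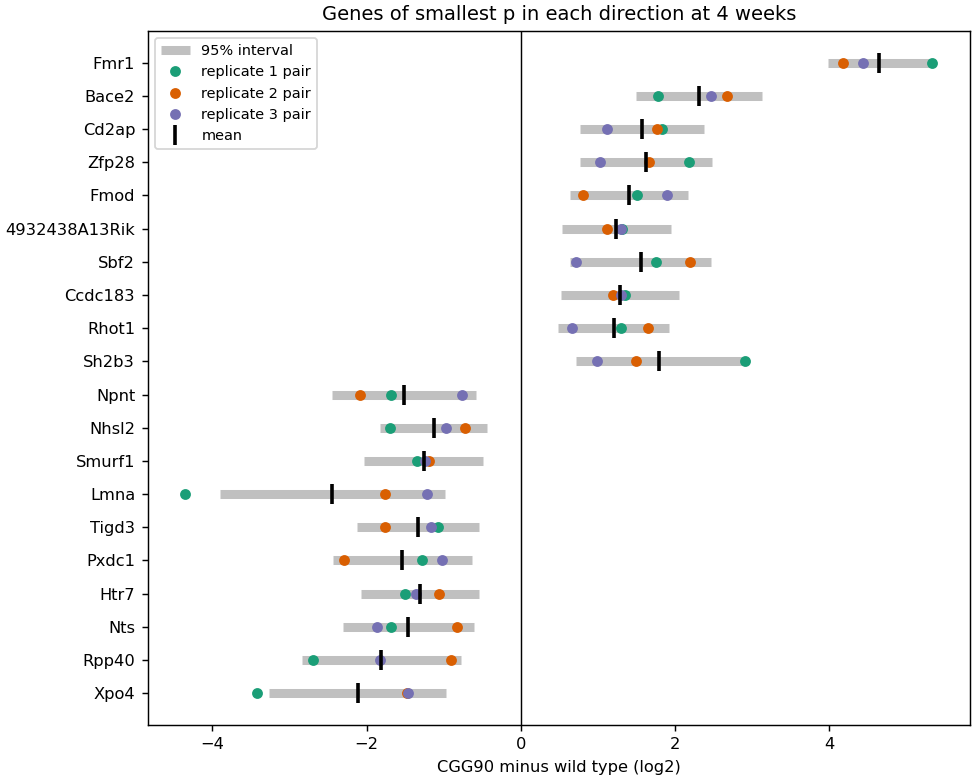
Differences (CGG90 minus wild type, log2) of the 10 genes with the smallest p on either side; points are the 3 pairs, vertical bars their mean and grey bars the 95% interval of the limma fit. Only Fmr1 (4.65) passed after adjustment, and Bace2 (2.31) and Lmna (-2.44) lie farthest out among the rest shown.

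Among genes with a mean of at least 6 that differed the same way in all 3 pairs, the largest higher ones after Fmr1 were Limd2 (1.94), Tmem123 (1.62), Ankrd28 (1.61) and Epha4 (1.58), an ephrin receptor. In most of them 1 pair gave much of the difference. Limd2 differed by 3.96, 0.46 and 1.41 in the 3 pairs, Ankrd28 by 1.17, 3.54 and 0.11, and Epha4 by 3.01, 0.97 and 0.76. Other probe sets above the floor differed by 0.51 for Tmem123, 0.03 for Ankrd28, and -0.30 and 1.28 for Epha4. On the lower side, after Lmna, stood Spon1 (-1.40), which encodes the matrix protein F-spondin, Niban2 (-1.38), Sc5d (-1.37), which encodes a late enzyme of cholesterol synthesis, and Gfap (-1.37), the intermediate filament of astrocytes. Gfap read 4.52, 7.62 and 10.53 in CGG90 and 6.41, 9.67 and 10.69 in wild type. It varied far more with the replicate number than with genotype, its 2 other probe sets differed by -0.06 and 0.61, and astrocyte and Bergmann glia markers averaged -0.24 with pairs of -0.16, -0.62 and 0.05. The part of that marker difference in the value of Gfap was not tested.

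The gene groups below are ordered from the repeat RNA outward, and Fmr1 was the only called member of any of them. Counts of members alike in all 3 pairs are to be read beside the shares over all tested genes, 9.2% higher and 11.4% lower. Of 33 listed proteins reported to bind CGG repeat RNA or related structures, 31 were tested: 7 were higher and 24 lower, with a median of -0.10, and all 3 pairs were lower in 5 members and higher in 1. The pairs disagreed, with medians of -0.27, 0.32 and -0.30. Tardbp, which encodes TDP-43, a protein whose added expression eases repeat toxicity in fly models, read 9.45, 10.08 and 9.97 against 9.92, 9.69 and 10.46 (difference -0.19, 95% interval -0.77 to 0.39). Hnrnpu was lower in all 3 pairs and averaged -0.39, with other probe sets above the floor at 0.10, 0.04 and -0.34. Dgcr8, the partner of Drosha in microRNA processing, averaged 1.15, mostly from the replicate 1 pair (2.89, -0.16 and 0.71). Over 16 members of microRNA biogenesis the median was -0.06, with Tnrc6a lowest at -0.80 (other probe sets above the floor from -0.84 to 0.52).

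FMRP target messages, which FMRP binds and holds back from translation, numbered 29 tested of 40: 14 higher, 15 lower, with a median of -0.01, the same as over all genes. In all 3 pairs 3 were higher and 7 lower. Camk2a, the alpha subunit of a calcium-dependent kinase, differed by 0.40 (0.23, 0.26 and 0.73 in the pairs), with other probe sets from -0.19 to 0.73, and Kif1a, a motor of synaptic vesicle precursors, by -0.50 (-0.96, -0.46 and -0.08). Tsc2 and Bsn stood at the ends with -0.62 and 0.64.

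Signalling from the metabotropic receptor mGluR1, which works through the G proteins Gq and G11, phospholipase C and inositol trisphosphate to release calcium in Purkinje dendrites, is of interest here because FMRP opposes protein synthesis that receptors of this group set off. Its list had 16 tested genes, 9 higher and 7 lower, with a median of 0.04. The receptor gene Grm5, of the same group, had pair differences of 1.31, -0.17 and -0.16, the first against a wild-type value at the array floor (2.43), so its mean of 0.33 has no shared direction. The G protein genes Gnaq and Gna11 differed by 0.20 and -0.22, and the phospholipases Plcb4 and Plcb3 by 0.16 (-0.07 without the replicate 3 pair) and -0.14. The scaffold Homer3 differed by 0.17. Homer1 differed by 0.32, but by -0.33 without the replicate 3 pair and by -0.19 and -0.31 on its other probe sets above the floor. The regulators Rgs8 and Rgs7bp differed by 0.01 and 0.06. Downstream, Dagla, which makes the endocannabinoid that signals back to presynaptic terminals, was the member of smallest p: it read 10.50, 9.43 and 9.02 in CGG90 and 9.94, 9.25 and 8.51 in wild type and was higher in each pair, by 0.42 on average (95% interval -0.08 to 0.92). Cnr1, the receptor for that signal, differed by -0.50 with pairs of both signs (-1.03 without replicate 3; 0.17 on its other probe set). The diacylglycerol kinase gene Dgkz differed by -0.01, Pld2 by -0.12, and of the nitric oxide and cyclic GMP branch Gucy1a2 differed by 0.38, Prkg1 by -0.14 and Ppp1r17 by -0.01. Most of these intervals were wide: that of Plcb4 ran from -0.50 to 0.82, while that of Ppp1r17 ran from -0.23 to 0.22.

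Among ionotropic receptors of the Purkinje synapse and their scaffolds, both genes of smallest p were AMPA receptor partners. Of 15 tested members 9 were higher and 6 lower, with a median of 0.11 and pair medians of 0.25, 0.16 and 0.42. Cacng2 and Cacng7 encode transmembrane AMPA receptor regulatory proteins, which carry AMPA receptors to the synapse and set their gating. Cacng7 read 9.54, 9.88 and 9.21 in CGG90 and 8.66, 9.17 and 8.25 in wild type, a difference of 0.85 ± 0.21 (95% interval 0.34 to 1.36). Cacng2 read 9.17, 9.11 and 9.07 against 8.62, 8.26 and 7.53, a difference of 0.98 ± 0.28. In both genes every CGG90 library was above every wild-type library, which held for 1.89% of all genes. Neither passed after adjustment over all genes. A second probe set of Cacng2 differed by 0.50, and one of Cacng7 by -0.28. Without the replicate 3 pair the differences were 0.70 for Cacng2 and 0.80 for Cacng7. The AMPA receptor subunits themselves differed by 0.17 (Gria1), 0.40 (Gria2), -0.03 (Gria3) and -0.26 (Gria4), and Gria2 was higher in all 3 pairs.

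Of 20 ion channel genes of Purkinje firing, 13 were higher and 7 lower, with a median of 0.09. Higher in all 3 pairs were 4 and lower in all 3 were none. Cacna1a, the P/Q-type calcium channel gene mutated in episodic ataxia, was among them, with pairs of 0.34, 0.36 and 0.33. Kcnma1, the large-conductance calcium-activated potassium channel, differed by 0.37 (0.23 without replicate 3; -0.01 and 0.01 on its other probe sets above the floor) and Kcnd2, a subunit of the A-type potassium current, by 0.48 (0.26 without replicate 3). In calcium handling 8 of 18 were higher and 10 lower (median -0.06). Slc8a1, a sodium-calcium exchanger, read 6.48, 6.66 and 6.11 in CGG90 and 3.88, 5.34 and 5.39 in wild type, without overlap (difference 1.55 ± 0.44, pairs 2.61, 1.32 and 0.72), and its other probe sets averaged below 4. The buffers Calb1 and Pvalb differed by -0.05 and 0.01.

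The genes of hereditary ataxias split evenly, with 13 of 25 higher, 12 lower and a median of 0.00. Atxn2 was lower in all 3 pairs and averaged -0.32, with other probe sets at -0.30 and 1.09. Atxn7 was lower in all 3 pairs too, but all its CGG90 values (2.89, 3.93 and 3.69) were below the floor of 4, so that no size is given. Among 14 proteins found in the inclusions of the disease, 7 were higher and 7 lower (median 0.02). Lmna is one of them. Another is Mbp, the myelin basic protein, at 0.33, and its level ran from 11.20 to 14.05 with the replicate number as the other oligodendrocyte markers did.

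For protein quality control, heat shock proteins and co-chaperones had 14 of 30 higher, 16 lower and a median of -0.03, with all 3 pairs lower in 5 and higher in none. Of these, Dnajb5 averaged -0.36, and Hspa14 averaged 0.35 with pairs of both signs and with other probe sets at -0.18 and -0.46. In the unfolded protein response 14 of 23 were higher and 9 lower (median 0.07). Xbp1, its transcription factor that is spliced by IRE1, read 10.33, 10.33 and 9.52 in CGG90 and 9.57, 9.74 and 9.18 in wild type, higher in each pair (0.76, 0.58 and 0.34; mean 0.56, 95% interval 0.09 to 1.04), but did not pass. Its 3 other probe sets above the floor differed by -0.18 to 0.39, and 2 of them were higher in CGG90. The array probe set does not tell spliced from unspliced message. Proteasome subunits had narrow spreads: 9 of 34 were higher and 25 lower with a median of -0.07, all members lay between -0.25 (Psma3) and 0.19 (Psmb6), and the pair medians were 0.05, -0.18 and 0.00. Autophagy and lysosome genes had 12 of 22 higher and a median of 0.00, and Lamp2 averaged 0.65 from pairs of -0.42, 1.85 and 0.52, with other probe sets from -1.62 to 0.69.

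The p53 response, which stops the cell cycle or starts cell death after damage, had the lowest median of the 25 gene groups plotted, which leave out the 2 Y-linked genes described above. Of 18 tested members 4 were higher and 14 lower, the median was -0.26, and the pair medians were -0.20, -0.28 and -0.19. All 3 pairs were lower in 7 members and higher in 1, where 11.4% and 9.2% of all genes were. Cdkn1a, the inhibitor of cyclin-dependent kinases, differed by -0.30 with pairs of -0.24, -0.34 and -0.32. Gadd45a averaged -0.68, Sesn2 -0.63 and Aen, a p53-induced nuclease, -0.29 (-0.61 and 0.15 on other probe sets above the floor). Mdm2, the ligase that degrades p53, differed by -0.11. None passed, and 0 of the 18 had an unadjusted limma p below 0.05. In the DNA damage response 9 of 20 were higher and 11 lower (median -0.06). Xrcc4, of non-homologous end joining, averaged -1.52 from pairs of -3.72, -0.70 and -0.16, and Parp2 averaged -0.88 without overlap. Atm, the kinase mutated in ataxia telangiectasia, averaged -0.48 (pairs -0.94, -0.23 and -0.28).

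**Figure D5:**
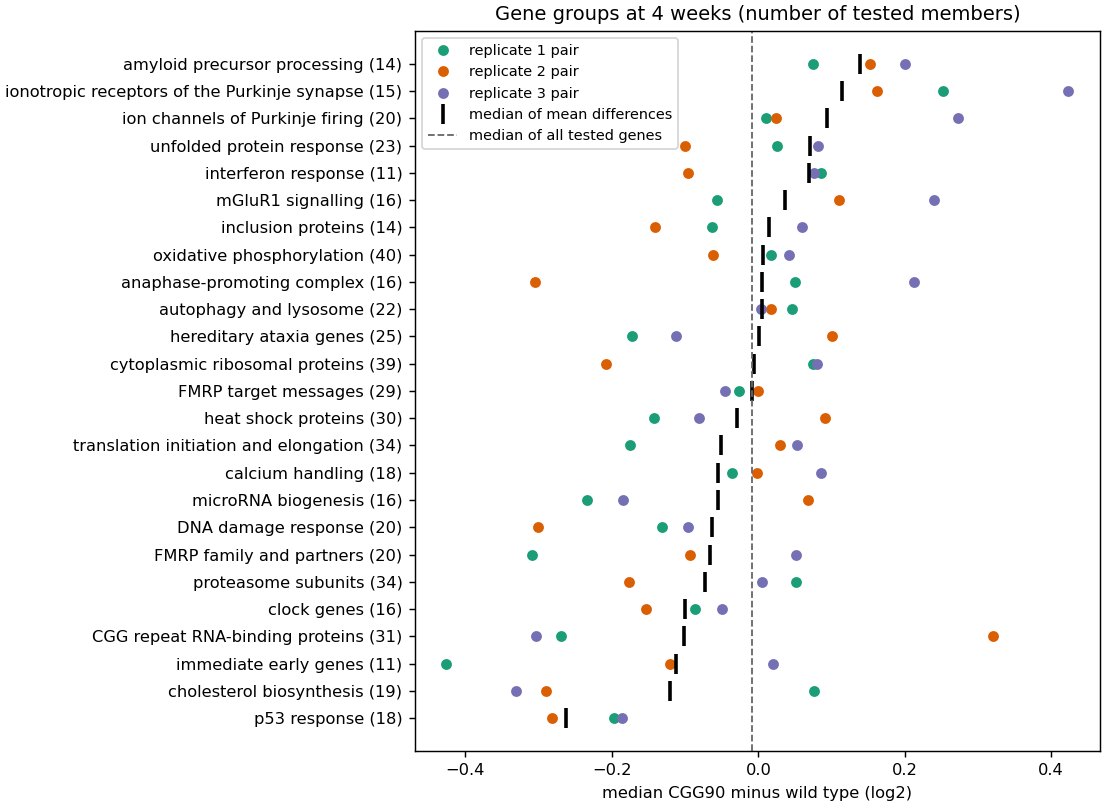
Median difference (CGG90 minus wild type, log2) of the tested members of 25 gene groups; points are the medians of each pair, black bars the median of the members' mean differences and the dashed line the median of all tested genes (-0.01). The group medians lie between -0.26 (p53 response) and 0.14 (amyloid precursor processing), and in most groups the 3 pairs fall on both sides of the dashed line.

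The machinery of translation stayed close to the median of all genes. Initiation and elongation factors had 11 of 34 higher, 23 lower and a median of -0.05, with the eIF2 kinase Eif2ak4 at 0.57 from pairs of 0.04, 1.39 and 0.27, close to the floor. Cytoplasmic ribosomal proteins had 19 of 39 higher, 20 lower, a median of -0.01 and a range of -0.23 to 0.20. Oxidative phosphorylation had 22 of 40 higher, a median of 0.01 and a range of -0.20 (Atp5b) to 0.23 (Cox8a; 0.09 without replicate 3).

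The remaining groups were as follows. Immediate early genes had 4 of 11 tested members higher and 7 lower (median -0.11). Dusp1, a phosphatase that turns off MAP kinases, differed by -1.42, -1.61 and 0.02 in the 3 pairs. Genes of amyloid precursor processing had 8 of 14 higher (median 0.14), and 4 were higher in all 3 pairs, Bace2, Psen2 (0.36), Adam10 (0.33) and Aph1b (0.26). Bace2 is described above, and the other Adam10 probe sets above the floor differed by -1.17 and -0.59. Cholesterol biosynthesis had 7 of 19 higher and 12 lower (median -0.12, pairs 0.08, -0.29 and -0.33), with 6 lower in all 3 pairs, among them Sc5d and Cyp51 (-0.51), the latter also differing by date. Interferon response genes had 7 of 11 higher (median 0.07), and the highest member, Stat2, averaged 0.36 from levels near the floor. Clock genes had 6 of 16 higher (median -0.10), with Bhlhe40 at -0.35 and Rora, also a Purkinje cell transcription factor, at -0.16. In the anaphase-promoting complex, which degrades cell cycle proteins and also acts in postmitotic neurons, 8 of 16 were higher and the median was 0.00. Its scaffold gene Anapc1 read 3.69, 3.22 and 3.80 in CGG90, all below the floor, and 4.15, 4.91 and 5.42 in wild type. These 3 wild-type values, the higher side of the comparison, were enough for Anapc1 to pass the filter. Another Anapc1 probe set above the floor differed by 0.18.

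The replicate number marks an immunoprecipitation date at this age, and it separated the libraries more than the genotype did. In the same limma fit 314 genes differed between the 3 numbers (3.12%, F test, adjusted p below 0.05), and 2111 (21%) had an unadjusted p below 0.05. The replicate 3 pair was highest in 281 of the 314 and the replicate 1 pair lowest in 277. Ttr, Mbp, Mal, Malat1 and Chgb had the smallest p. Ttr, the choroid plexus gene for transthyretin, read 12.37, 13.77 and 14.34 in CGG90 and 12.32, 13.91 and 14.34 in wild type. Mal, a myelin gene, read 9.44, 11.26 and 12.66 against 9.06, 11.36 and 12.43. Chgb, a secretory granule protein, read 11.05, 12.46 and 13.31 against 11.11, 12.39 and 13.35. These values run side by side in both genotypes. Passing members numbered 8 of 12 oligodendrocyte, 7 of 13 granule cell, 7 of 14 astrocyte and Bergmann glia and 4 of 6 microglia markers, and 0 of 21 Purkinje cell markers. The date count dropped to 0 without the replicate 1 or the replicate 3 pair and reached 1283 without replicate 2.

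Whether a difference was particular to 4 weeks was tested against CGG90 minus wild type at 8 weeks, in a limma fit of all 18 libraries without a block. At 8 weeks the 2 genotypes of replicate 1, and those of replicate 2, did not share an immunoprecipitation date. The 8-week differences are therefore not matched for date as those at 4 weeks are. No gene passed (0%), and 88 had an unadjusted p below 0.05. Fmr1 at 8 weeks was 11.01, 11.66 and 11.90 in CGG90 and 5.60, 8.53 and 7.91 in wild type, a difference of 4.18, so that the 4-week difference was larger by 0.47 ± 1.48 (SE). That error pools all 6 groups, among them the 12-week CGG90 libraries with an Fmr1 SD of 3.19, and it was 0.85 in the 12 libraries of 4 and 8 weeks alone. Bace2 at 8 weeks was at the floor in CGG90 (2.78, 2.58 and 2.79) and averaged 3.37 in wild type. Its change between the ages, 2.96, did not pass (limma, adjusted p = 1.00). Cd2ap, Fmod and Slc8a1 differed by -2.91, -1.68 and -1.55 at 8 weeks, the opposite direction of 4 weeks, and their change between the ages did not pass either. The values of Zfp28 (1.53), Ccdc183 (1.61) and Sbf2 (3.82) at 8 weeks had the direction of 4 weeks. Cacng7 and Cacng2 differed by 0.63 and 0.14 at 8 weeks. CGG90 replicate 1 at 8 weeks read the Y-linked Eif2s3y at 3.21 and Kdm5d at 2.64, both below 4. The labels give 2 males and 2 females for its pool. At 12 weeks 2 of the 3 libraries labelled CGG90 read Fmr1 at 7.10 and 6.03, within or below the range of wild type, so that age was not set against 4 weeks. Zfp28 read 5.13 and 7.01 in those 2 libraries.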

How the data were processed

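The authors deposited 1 log2 value per probe set and library, made with GCRMA per the submitters' processing notes. That method models background from the bases of each probe, puts the arrays on 1 scale and joins probes into sets. Which arrays were treated together is not given in the sources used here. Background correction could not be varied. Of 45101 probe sets, 34958 have 1 gene symbol in the platform annotation, 932 several and 9211 none listed. Each gene was represented by its brightest single-symbol probe set over all 18 libraries (18194 genes) and tested where log2 reached 4 in at least 3 libraries (10068 genes). Symbols matched the RefSeq table with 0 changes.

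The genotypes were compared with limma 3.58.1 in R 4.3.3 (lmFit, then eBayes with an intensity trend; two-sided; 2 residual and 4.63 prior degrees of freedom). The Benjamini-Hochberg adjustment covered all 10068 genes, and a call needs an adjusted p below 0.05. The 4 and 8 week contrasts were compared in 1 limma fit of all 18 libraries. In the 4-week fit replicate number was a fixed block, because at that age the labels give both libraries of a number the same immunoprecipitation date. The fit of all 18 libraries had no block, because at 8 weeks not all equal numbers share a date. The residuals of same-number libraries correlated at 0.50, 0.02 and 0.61. The scripts were tested on simulated data. The precision is limited by 3 libraries per group, and nothing in the labels gives the depth of an array.

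Named genes were Fmr1, Fxr1, Fxr2, Tardbp, Pcp2 and Rpl10a, the 10 of smallest p in each direction, the 5 of largest difference in each direction with a mean of at least 6 and 3 pairs alike, the 2 of smallest p in each gene group, and all of the FMRP and mGluR1 lists. Other members of the lists are named as examples, chosen after their values were seen. The comparison, the lists and the members were chosen with earlier results of these data known. Lists are described by counts and medians, without a test.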

Additional observations from a re-analysis of the deposited data

How the results depend on the processing

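Fmr1 stayed higher in CGG90 by 4.31 to 4.88 on its brightest probe set in every alternative with that probe set, but its call did not hold in all of them. Without the replicate block it was again the only call (1 gene; limma, adjusted p = 0.0121). The count of called genes was 0 without the variance trend (Fmr1 4.65, adjusted p = 0.270), without a filter (4.65, 0.750), in all 18 libraries without a block (4.65, 1.00; this fit holds the 12-week CGG90 libraries, whose Fmr1 SD was 3.19) or with date as a block (4.65, 0.0772), and with the mean of all probe sets (2.83, 0.143). The dimmer Fmr1 probe sets gave 3.84 and -0.014. Leaving out 1 pair or 1 library gave 0 to 1 calls and adjusted p-values of 0.00778 to 0.245: it lost the call without the replicate 3 pair (4.76) and, with no block, without CGG90 replicate 1, 2 or 3 or wild type replicate 2 or 3. The cause was not tested, beyond the fewer libraries in the fit. The count of genes that differed by date was 314, and 0 without the variance trend, 0 without a filter, 78 with the mean of all probe sets, 500 with a floor of 6, 741 with array weights and 0 to 1283 without a pair. For the difference between 4 and 8 weeks, 1 gene (Cyb5rl) passed without the variance trend, and 0 in the other alternatives. Among 108 other named genes none passed under any of 22 alternatives, and 115 of 2348 values changed sign, in 45 of the 108 genes. Of the 34 with an unadjusted p below 0.05, 3 of 731 values changed sign, all with no block: Gfap without CGG90 replicate 1, and Mbp without CGG90 replicate 3 (-0.23) or wild type replicate 1. Without 1 pair or library, Gfap ranged from -2.85 to 0.15 and Mbp from -0.38 to 1.01. List medians changed sign in 105 of 791 values, in 31 of 36 lists. With 3 pairs, differences under about 0.74 could not be told from 0 in a typical gene, even by its unadjusted 95% interval. A call after adjustment over all genes needed more: differences as large as 2.31 (Bace2) and -2.44 (Lmna) did not pass.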
